A study of Mus musculus with 3 samples.

Results

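The CC and CXC chemokines are small secreted proteins that attract leukocytes and other migrating cells. They were taken as all genes that a probe set names alone and whose symbol is Ccl or Cxcl followed by a number and at most 1 letter, which gave 31 genes (18 CC and 13 CXC) of 18193 measured. The cells were NIH3T3, an immortalized fibroblast line from embryos of NIH/Swiss mice, grown with 10% calf serum. In mtYAP cells a retrovirus expressed mouse YAP with the serine at residue 112, the site used by the LATS kinases of the Hippo pathway, replaced by alanine, in YAP cells it expressed wild-type YAP, and control cells are labelled untransduced, although the methods also describe a virus with empty vector and do not say which control was arrayed. Each of the 3 conditions was measured once, on an Affymetrix GeneChip Mouse Genome 430 2.0 array, so no value has an error and no difference a test. Both overexpressing lines were pools of cells that survived puromycin after infection, and virus and selection therefore cannot be told apart from the YAP proteins in any comparison with control. A free-text note on the control array refers to an embryonic stem cell experiment, while its other labels name NIH3T3. The comparison of mtYAP with YAP does not take levels from that array, although normalization may have used all 3 arrays together.

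Levels are on the log2 scale, so a difference of 1 is 2-fold, and a gene was taken as clearly measured at level 6. Levels of different genes are not compared, since probe sets differ in brightness. The array medians were 4.57 in mtYAP, 4.56 in YAP and 4.60 in control. All 10 fibroblast markers were at 6 or more on all 3 arrays, whereas none of 9 leukocyte, 5 endothelial and 5 epithelial markers reached 6 on any array. Over the 9 leukocyte markers the median difference from control was 0.11 in mtYAP and 0.26 in YAP. With levels all below 6, this is no measure of leukocyte content. Yap1 itself read 0.68 lower than control in mtYAP (log2 difference −0.68) and lower in YAP (−0.51), and whether its probe sets can read the coding sequence carried by the vectors was not examined, so these levels are no check of the labels. In bulk RNA such as this, fewer cells that express a gene and less of its RNA per cell cannot be told apart.

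Chemokines are named by the spacing of their first cysteines, which are adjacent in the CC group and separated by another residue in the CXC group. They act through G protein-coupled receptors on the cells they attract, and many are induced by the transcription factor NF-kB in inflamed tissue, while others, such as Cxcl12, are made constitutively by stromal cells. Fibroblasts are a known source of several, among them the monocyte chemoattractant Ccl2 and Cxcl12.

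Few chemokines were clearly measured in these cells. Of all 31, 5 stood more than 2-fold lower in cells overexpressing mtYAP, most of all Ccl2. Ccl2, Ccl7, Ccl8, Cxcl12 and Cxcl5 lay more than 2-fold below control in mtYAP. Ccl2, Ccl8 and Cxcl12 did so in YAP. No chemokine lay more than 2-fold above control in either line. Level 6 was reached on at least 1 array by 7 of the 31 genes (22.6%), namely the 5 above with Ccl9 and Cxcl1, against 39.2% of all genes (7129). Of the 7, Ccl8 and Cxcl12 reached it only in control. The other 24 stayed below level 6 on all 3 arrays. The genes nearest to that level on either side were Cxcl1 and Ccl9, whose highest levels were 6.62 and 6.66, and Ccl25, whose highest level was 5.99.

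**Figure D1:**
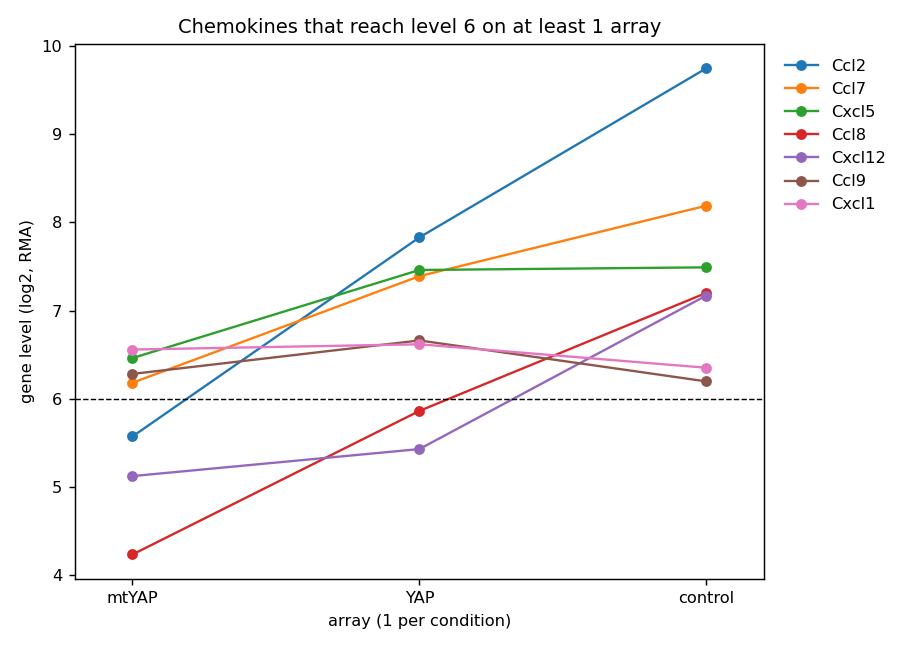
Log2 levels (vertical axis) of the 7 chemokine genes that reached level 6 (dashed line) on at least 1 array, with 1 point for each of the mtYAP, YAP and control arrays (horizontal axis) and lines joining the points of a gene. Ccl2 stands at 5.57 in mtYAP, 7.83 in YAP and 9.75 in control, while Ccl9 and Cxcl1 stay between 6.20 and 6.66.

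In mtYAP, 5 of the 31 chemokines (16.1%) had a log2 difference from control below −1, against 4.06% of all genes, and 0 lay above 1, against 3.77% of all genes. In YAP, 3 of 31 (9.68%) lay below −1, against 1.26% of all genes, and 0 above 1, against 1.36%. Between the lines, 3 of 31 lay more than 2-fold lower in mtYAP than in YAP, against 1.42% of all genes, and 0 higher, against 0.748%. Among the 7129 genes that reached level 6, 8.22% lay below −1 and 7.66% above 1 in mtYAP, and 2.3% below and 2.72% above in YAP. Between mtYAP and YAP the shares of these genes were 3.06% below and 1.33% above. The median over all 31 chemokines was −0.05 in mtYAP and −0.08 in YAP, against 0.02 and −0.00 over all genes, so most of the family lay near control. Both comparisons with control share the control array. A gene that reaches level 6 only in control has to be lower elsewhere, so the 7 genes above that level are described singly.

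The monocyte chemoattractant protein group held 3 of the 5 genes lower in mtYAP, among them Ccl2, which by gene mean lay furthest below control in both lines. Ccl2, the main attractant of monocytes through the receptor CCR2, had a level of 5.57 in mtYAP, 7.83 in YAP and 9.75 in control. It was lower in both lines, with a log2 difference from control of −4.18 in mtYAP (18.1-fold lower) and −1.92 in YAP (3.78-fold lower). In mtYAP it ranked 13 from the lowest of 18193 genes by this difference, and in YAP 43. The mtYAP level lay below 6, and counted from level 6 the difference was −3.75, or at least 13.5-fold. Between the lines Ccl2 differed by −2.26 (4.79-fold lower in mtYAP than in YAP), or by −1.83 (3.56-fold) counted from level 6.

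Ccl7, another CCR2 ligand, which helps release monocytes from the bone marrow, was at 6.18 in mtYAP, 7.39 in YAP and 8.19 in control. It was above level 6 on every array, and differed from control by −2.01 in mtYAP (4.03-fold lower) and by −0.80 in YAP (1.74-fold lower). Between mtYAP and YAP the difference was −1.21. Ccl8, of the same group and known in mouse as an agonist of the receptor CCR8, was at 4.23 in mtYAP, 5.86 in YAP and 7.20 in control, so that only the control level was clearly measured. Its differences from control were −2.97 in mtYAP and −1.34 in YAP, and both became −1.20 when levels under 6 were counted as 6. The difference of −1.63 between the lines therefore lies wholly below level 6. Ccl12, the remaining member and also a CCR2 ligand, was at 3.03 in mtYAP, 2.79 in YAP and 2.59 in control.

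The genes of this group are neighbours on chromosome 11 in the RefSeq annotation of GRCm38.p6, which was used here for gene order. Ccl2, Ccl7, Ccl11, Ccl12, Ccl8 and Ccl1 follow each other with no other protein-coding gene between them. Within this run Ccl2, Ccl7 and Ccl8 reached level 6. All 3 lay more than 2-fold below control in mtYAP, and in YAP Ccl2 and Ccl8 did. Ccl11, which attracts eosinophils, and Ccl1 were at most 3.76 on every array, and with Ccl12 they lay between −0.38 and 0.44 of control in both lines. A further run, Ccl5, Ccl9, Ccl6, Ccl3 and Ccl4, starts 25 protein-coding genes further on, and none of its members lay more than 2-fold from control.

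**Figure D2:**
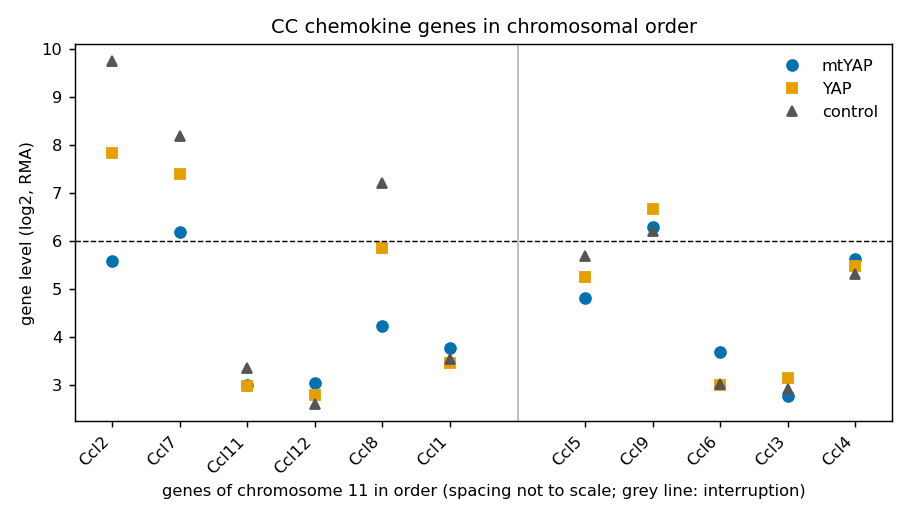
Log2 levels (vertical axis) of 11 CC chemokine genes in their order on chromosome 11 (horizontal axis, not to scale) on the mtYAP (circles), YAP (squares) and control (triangles) arrays, with level 6 as a dashed line and a grey line between the runs. Ccl2, Ccl7 and Ccl8 are highest in control and lowest in mtYAP, while their neighbours Ccl11, Ccl12 and Ccl1 lie below 4 on all 3 arrays.

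Cxcl12, also known as stromal cell-derived factor, retains haematopoietic cells in the bone marrow through the receptor CXCR4. It had a mean level of 5.12 in mtYAP, 5.43 in YAP and 7.17 in control over 3 probe sets. The log2 difference from control was −2.05 in mtYAP (4.14-fold lower) and −1.74 in YAP (3.35-fold lower), and the lines differed by −0.31. Both lines' means lay below 6, and with levels under 6 counted as 6 the difference from control was −1.17 in each line (2.25-fold lower) and 0 between them. The probe sets did not run together. The brightest had 6.37 in mtYAP, 7.12 in YAP and 9.97 in control, with differences of −3.60 and −2.85. It was above level 6 on every array, and on it the lines differed by −0.75. The next had 5.22 in mtYAP, 5.63 in YAP and 8.35 in control, with differences of −3.13 and −2.72. The third, at most 3.77 on any array, had differences of 0.58 and 0.34, so averaging it in makes the gene difference smaller than that of the 2 brighter probe sets. Which transcripts the third reads was not examined. Ranked by the gene mean, Cxcl12 was 137 from the lowest of all genes in mtYAP and 56 in YAP.

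**Figure D3:**
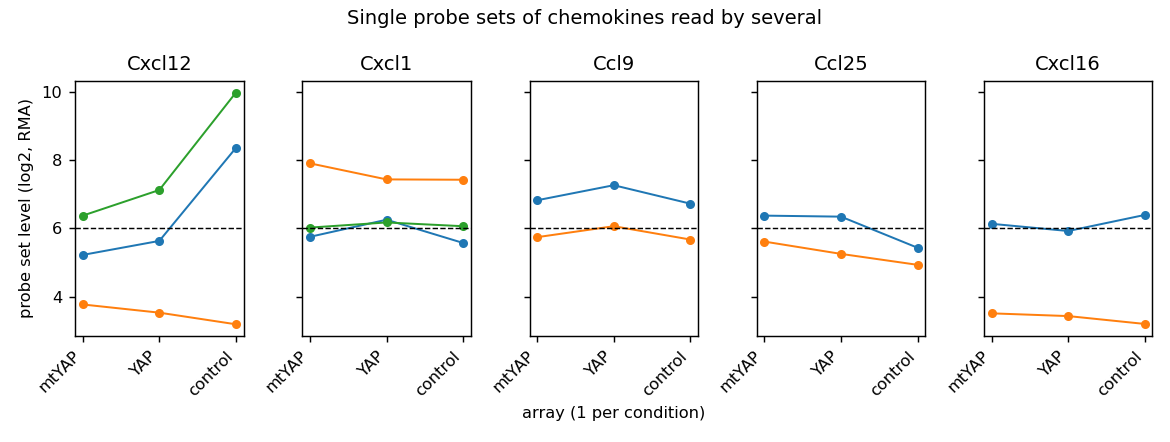
Log2 levels (vertical axis) of single probe sets of Cxcl12, Cxcl1, Ccl9, Ccl25 and Cxcl16 on the mtYAP, YAP and control arrays (horizontal axis), 1 line for each probe set, with level 6 as a dashed line. The brightest Cxcl12 probe set stands at 6.37 in mtYAP, 7.12 in YAP and 9.97 in control, while the dimmest stays below 4 and is highest in mtYAP.

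The CXC chemokines with an ELR motif before the first cysteine attract neutrophils through CXCR2. Cxcl5 was at 6.46 in mtYAP, 7.46 in YAP and 7.49 in control, clearly measured on each array. It differed from control by −1.03 in mtYAP (2.04-fold lower) and by −0.03 in YAP, and by −1.0, exactly at the limit, between mtYAP and YAP. Cxcl1, the mouse chemokine also called KC, averaged 6.56 in mtYAP, 6.62 in YAP and 6.35 in control over 3 probe sets, with differences of 0.21 and 0.27. Its probe sets differed in order. The brightest stood at 7.90 in mtYAP, 7.43 in YAP and 7.42 in control, and another at 5.75 in mtYAP, 6.25 in YAP and 5.57 in control. Cxcl5, Cxcl3, Cxcl15, Cxcl1 and Cxcl2 lie close together on chromosome 5, and Cxcl2, Cxcl3 and Cxcl15 were at most 2.72 on every array. The cluster thus held 1 gene lower in mtYAP and another, Cxcl1, within 0.27 of control in both lines.

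Among the inflammatory CC chemokines of the second run on chromosome 11, Ccl9, which in mouse acts through CCR1, was at 6.28 in mtYAP, 6.66 in YAP and 6.20 in control. Its difference was 0.09 in mtYAP and 0.47 in YAP, and both of its probe sets were highest in YAP. Ccl5, an attractant of T cells and monocytes, was at 4.81 in mtYAP, 5.24 in YAP and 5.68 in control, a difference of −0.87 and −0.44, below level 6 throughout. Ccl4 was at 5.62 in mtYAP, 5.47 in YAP and 5.30 in control. Ccl6 was at 3.68 in mtYAP, 2.99 in YAP and 3.02 in control, and Ccl3 at most 3.13 on any array.

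Ccl25, a thymic and gut chemokine that acts through CCR9, had the largest difference above control in either line, although below the 2-fold limit. Its mean level was 5.99 in mtYAP, 5.80 in YAP and 5.18 in control, with differences of 0.81 and 0.62. Its brighter probe set stood at 6.37 in mtYAP, 6.34 in YAP and 5.43 in control and the dimmer one at 5.61 in mtYAP, 5.25 in YAP and 4.93 in control, so both were lowest in control. Of the other epithelial and mucosal CC chemokines, Ccl27a was at 5.30 in mtYAP, 5.68 in YAP and 5.48 in control, on a probe set of a kind that can read related transcripts. By gene mean, Ccl20 and Ccl28 differed from control by at most 0.17 in either direction. The 3 probe sets of Ccl28 ran from −0.09 to 0.39 in mtYAP and from −0.44 to 0.27 in YAP.

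The gene means of the remaining chemokines stayed below level 6. Over the 24 genes below level 6 on all 3 arrays, differences from control ran between −0.87 and 0.81 in mtYAP and between −0.56 and 0.62 in YAP, all within the 2-fold limit. The CXCR3 ligands Cxcl9, Cxcl10 and Cxcl11, which interferon induces and which attract activated T cells, were at most 3.80 on any array and differed from control by −0.24 to 0.11 in mtYAP and by −0.56 to −0.02 in YAP. Cxcl17 was at 5.61 in mtYAP, 5.28 in YAP and 5.60 in control. Cxcl16, a membrane-bound chemokine and scavenger receptor, averaged 4.82 in mtYAP, 4.68 in YAP and 4.80 in control, although its brighter probe set stood at 6.13 in mtYAP, 5.92 in YAP and 6.39 in control. By gene mean, Cxcl13, Cxcl14, Ccl17, Ccl22 and Ccl24 all lay within 0.39 of control in both lines. In mtYAP the 2 probe sets of Cxcl14 differed from control by 0.67 and −0.22, and those of Cxcl13 by 0.55 and −0.34. Probe sets shared with other genes, left out of the gene levels, read Ccl19, the Ccl21 genes and the Ccl27 genes, and none of these 4 probe sets differed from control by more than 0.36. The brighter of those for the Ccl27 genes was above level 6 throughout, at 6.76 in mtYAP, 6.75 in YAP and 6.84 in control, and the other stood at 5.93 in mtYAP, 6.32 in YAP and 5.96 in control.

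**Figure D4:**
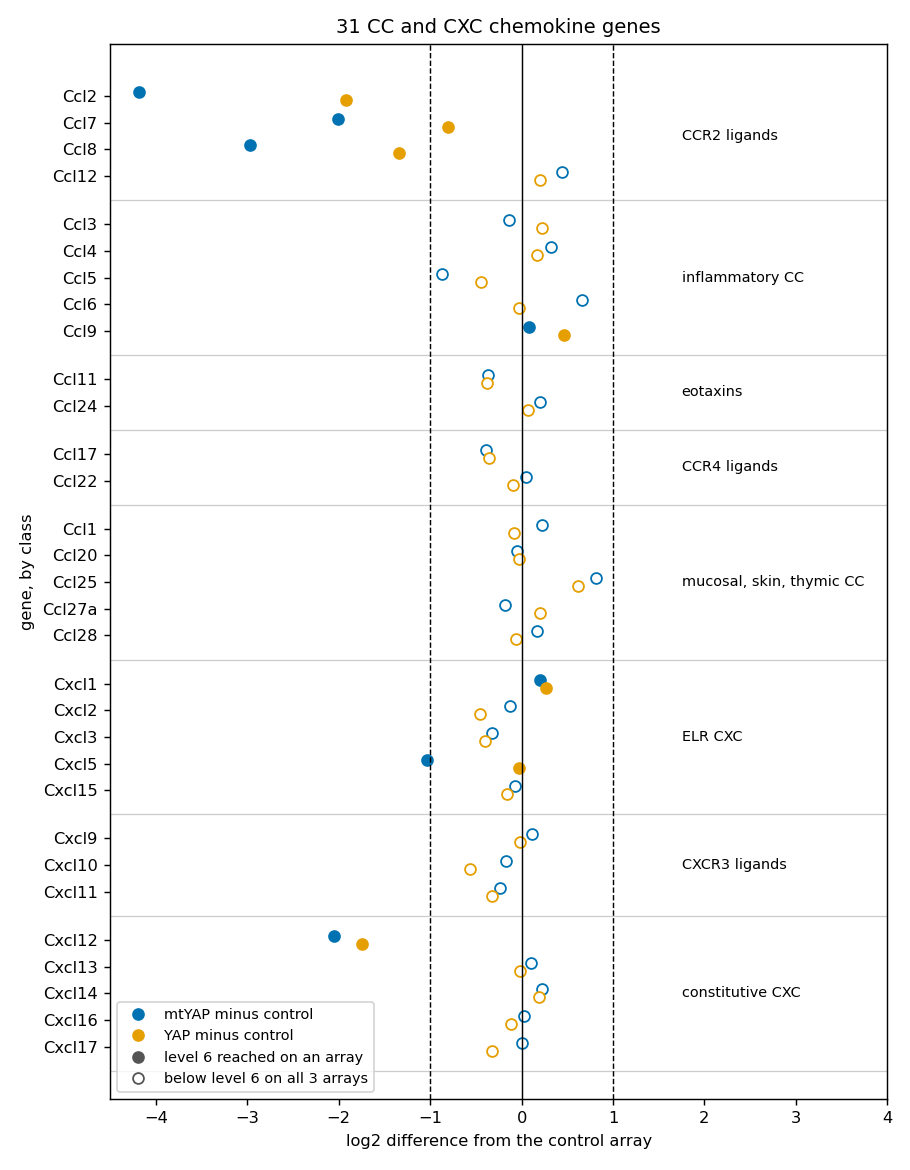
Log2 difference from the control array (horizontal axis) of all 31 CC and CXC chemokine genes (vertical axis, by class) in mtYAP (blue) and YAP (orange), with dashed lines at the 2-fold limits. Open points are genes below level 6 on all 3 arrays, and each point past −1 is filled, from Cxcl5 at −1.03 to Ccl2 at −4.18, both in mtYAP.

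The sequences upstream of the start site were searched for motifs of NF-kB, the factor best known to induce chemokines, of AP-1 (TGANTCA), of TEAD, the partner of YAP (GGAATG), and of interferon-regulated genes (ISRE), on both strands of the 250 bases before each start. The NF-kB motif was in 7.25% of 32851 windows in RefSeq (GRCm38.p6). The share was 6.75% for AP-1, 12.6% for TEAD and 2.98% for ISRE. Counted by gene, with any of its windows, the shares were 8.23% for NF-kB, 7.82% for AP-1, 14.4% for TEAD and 3.46% for ISRE. A window was found for 21 of the 31 chemokines, and 7 of these had an NF-kB match, 3 an AP-1, 4 a TEAD and 2 an ISRE match. Of the 7 genes that reached level 6, windows were matched for Ccl8, Cxcl12, Ccl9 and Cxcl1 and not for Ccl2, Ccl7 and Cxcl5. All 4 are shown, the first pair lower in both lines and the other pair not. They run 5′ to 3′ on the gene's strand up to the base before the start, with NF-kB matches in capitals.
Ccl8, chr11:82114935-82115184, plus strand: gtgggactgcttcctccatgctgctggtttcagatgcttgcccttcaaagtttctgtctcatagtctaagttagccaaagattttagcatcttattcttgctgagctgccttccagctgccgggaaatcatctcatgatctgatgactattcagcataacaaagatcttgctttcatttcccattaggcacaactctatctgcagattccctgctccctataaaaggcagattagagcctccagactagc
Cxcl12, chr6:117168285-117168534, plus strand: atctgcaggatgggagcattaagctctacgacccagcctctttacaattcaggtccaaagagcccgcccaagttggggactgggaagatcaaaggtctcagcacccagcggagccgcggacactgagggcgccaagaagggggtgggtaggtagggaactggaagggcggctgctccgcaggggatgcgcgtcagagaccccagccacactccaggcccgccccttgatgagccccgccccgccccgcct
Ccl9, chr11:83578637-83578886, minus strand: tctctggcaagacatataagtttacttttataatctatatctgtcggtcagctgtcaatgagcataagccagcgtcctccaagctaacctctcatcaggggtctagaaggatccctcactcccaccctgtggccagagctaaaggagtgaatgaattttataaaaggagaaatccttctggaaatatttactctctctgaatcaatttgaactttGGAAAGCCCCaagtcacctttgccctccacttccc
Cxcl1, chr5:90890995-90891244, plus strand: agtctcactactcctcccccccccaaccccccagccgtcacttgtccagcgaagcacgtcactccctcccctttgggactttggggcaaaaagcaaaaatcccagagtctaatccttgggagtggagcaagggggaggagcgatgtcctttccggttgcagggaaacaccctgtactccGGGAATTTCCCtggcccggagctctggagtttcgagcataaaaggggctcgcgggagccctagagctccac
The windows of Ccl8 and Cxcl12 hold none of the 4 motifs. That of Cxcl1 holds an NF-kB match on each strand, 1 base apart, and that of Ccl9 an NF-kB match on the opposite strand and an AP-1 match that does not overlap it. A match is a description of letters and not of binding, and 4 windows allow no comparison.

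The receptors of these ligands were near the background. None of 16 measured chemokine receptors reached level 6, and none lay more than 2-fold from control in either line. Cxcr4, the signalling receptor of Cxcl12, was at 2.87 in mtYAP, 2.66 in YAP and 2.34 in control, and Ccr2 at 3.15 in mtYAP, 3.12 in YAP and 2.97 in control. Of 7 atypical receptors, which bind chemokines without G protein signalling, only Ackr3, a scavenger of Cxcl12, reached level 6. It was at 9.81 in mtYAP, 10.10 in YAP and 9.24 in control, so its level was higher in both lines (0.57 and 0.86) where that of its ligand Cxcl12 was lower. Cx3cl1, Xcl1, Pf4 and Ppbp, chemokines outside the CC and CXC symbols, stayed below level 6 too.

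Of 14 NF-kB factors and feedback inhibitors, 6 were more than 2-fold lower in mtYAP cells (all genes, 4.06%) and 2 in YAP cells (all genes, 1.26%). Among genes at level 6 these shares were 8.22% and 2.3%, and 10 of the 14 reached that level, Nfkbie and Birc3 only in control. None of the 14 was more than 2-fold higher, and the median difference was −0.73 for mtYAP and −0.22 for YAP. Tnfaip3 (0.865) and Nfkbib (0.535), both below level 6 on all arrays, lay above control in mtYAP. Nfkbia, the inhibitor IkB-alpha and itself an NF-kB target, was at 6.80 in mtYAP, 7.64 in YAP and 8.85 in control (differences −2.05 and −1.21). Nfkbie, a related inhibitor, was at 4.33 in mtYAP, 5.02 in YAP and 6.71 in control (−2.38 and −1.69). Relb, an NF-kB subunit, was at 5.48 in mtYAP, 6.67 in YAP and 6.97 in control (−1.49 and −0.30), and Tnip1, which restrains NF-kB, at 6.47 in mtYAP, 7.02 in YAP and 7.64 in control (−1.17 and −0.62). Of 12 cytokine and adhesion genes of the NF-kB response, 4 reached level 6, against 10 of the 14 above, so the counts of these lists are not compared. None of the 12 lay more than 2-fold lower in either line, and 1, Ptgs2, lay above (all genes, 3.77% in mtYAP and 1.36% in YAP). Ptgs2, the inducible cyclooxygenase, was at 10.06 in mtYAP, 8.60 in YAP and 6.70 in control (3.37 and 1.90). Csf1, the growth factor of macrophages, was at 7.73 in mtYAP, 7.18 in YAP and 7.20 in control, and Vcam1 and Sod2 lay within 0.25 of control. Il6 was at 5.92 in mtYAP, 5.25 in YAP and 5.51 in control.

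Of 10 interferon response genes, 5 were more than 2-fold lower in mtYAP cells (all genes, 4.06%) and 0 in YAP cells (all genes, 1.26%), and the median difference was −0.87 for mtYAP and −0.40 for YAP. Gbp2, a guanylate-binding protein, was at 4.82 in mtYAP, 6.68 in YAP and 7.43 in control. Irf1, a transcription factor, was at 7.40 in mtYAP, 8.08 in YAP and 8.49 in control, and Ifit3, an antiviral protein, at 5.0 in mtYAP, 5.98 in YAP and 6.48 in control. The others, Ifit1 and Stat2, named after their values were seen, were below level 6 on all arrays. Of 12 receptors of innate and cytokine signalling 1 lay more than 2-fold lower in each line (Tlr3 in mtYAP and Tlr2 in YAP, also named afterwards), both below level 6. Over all genes the shares were 4.06% in mtYAP and 1.26% in YAP, so a single gene of 12 does not set this list apart. Tnfrsf1a, the main receptor of TNF, was at 9.05 in mtYAP, 9.60 in YAP and 9.97 in control, and Il6st, the shared receptor subunit of the IL-6 family, at 9.26 in mtYAP, 9.12 in YAP and 8.56 in control. The interferon receptor subunits Ifnar1 and Ifngr2 differed from control by −0.74 and −0.52 in mtYAP and by −0.185 and −0.445 in YAP. The other subunits, Ifnar2 and Ifngr1, differed by −0.16 and 0.12 in mtYAP and by 0.12 and 0.71 in YAP.

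Of 10 genes that process or present chemokines, 3 lay more than 2-fold below control in mtYAP (all genes, 4.06%) and 2 in YAP (all genes, 1.26%). Among genes at level 6 these shares were 8.22% and 2.3%, and 7 of the 10 reached that level. Of those, only Mmp2 and Mmp14 lay past the limit in mtYAP, and none did in YAP. Mmp2, a gelatinase that can trim Ccl7 and Cxcl12, was at 10.93 in mtYAP, 11.48 in YAP and 12.24 in control, and Mmp14, which activates it, at 7.82 in mtYAP, 8.60 in YAP and 9.48 in control. The other genes past the 2-fold limit were Mmp3, in both lines, and Mmp9, in YAP, below level 6 and named after their values were seen. The heparan sulfate carriers Sdc1 and Gpc1 lay within 0.49 of control. Of the 10 fibroblast markers, 4 were also more than 2-fold lower in mtYAP cells (8.22% of all genes at level 6) and 1 in YAP cells (2.3% of these), and the median difference was −0.74 for mtYAP and −0.36 for YAP. Pdgfra was at 7.62 in mtYAP, 9.67 in YAP and 10.03 in control and Pdgfrb at 7.07 in mtYAP, 8.59 in YAP and 9.69 in control. Their part in the chemokine levels was not tested.

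**Figure D5:**
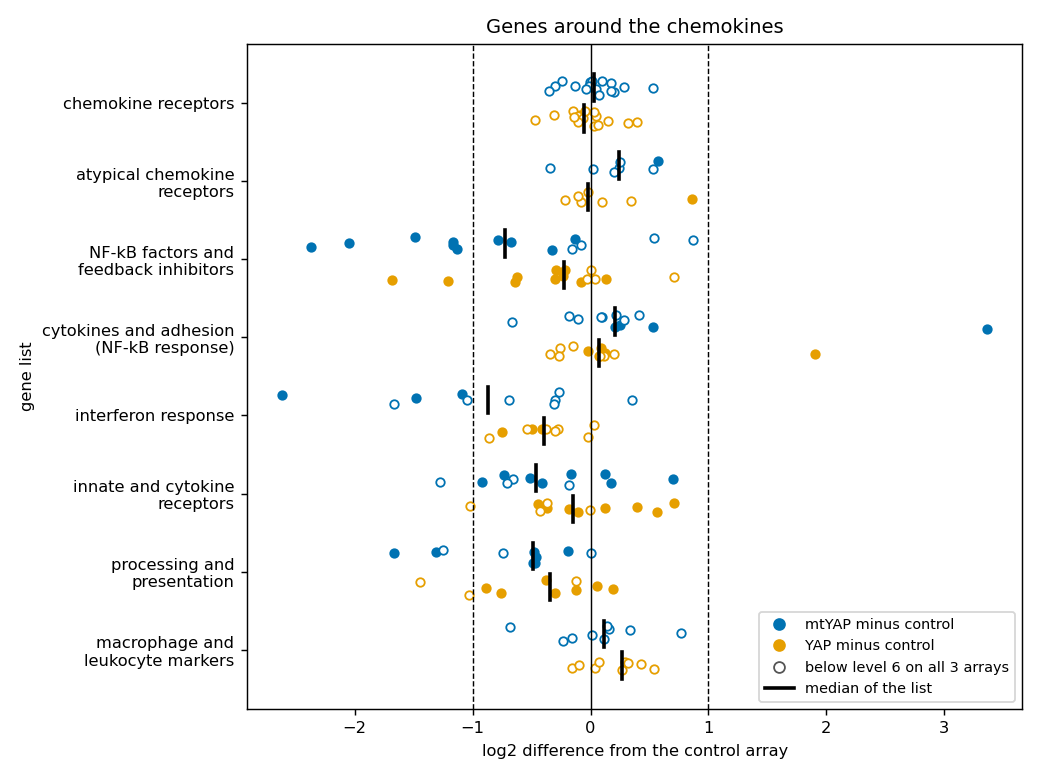
Log2 difference from the control array (horizontal axis) of single genes of 8 lists (vertical axis) in mtYAP (blue) and YAP (orange), with black bars at the medians, dashed lines at the 2-fold limits and open points for genes below level 6 on all 3 arrays. The median of the NF-kB list lies at −0.73 for mtYAP and −0.22 for YAP, and the point at 3.37 in mtYAP is Ptgs2.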

How the data were processed

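RNA of mtYAP, YAP and control NIH3T3 cells was measured on 430 2.0 arrays, 1 per condition, and the number of arrays limits the precision. Background correction and normalization were done by the authors in R with robust multiarray analysis (RMA), and the deposited values are log2 levels of 45037 probe sets. RMA and affy stand in the submitters' processing notes, with versions not given in the sources used here. Platform annotation gave 34945 probe sets 1 gene symbol, 932 several and 9160 none. The levels of all probe sets naming a gene alone were averaged, and differences between arrays were taken per gene. The chemokines were read by 46 probe sets, 19 genes by 1 and 12 by several, and all 31 symbols were found in RefSeq (GRCm38.p6).

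No test was run. Counts past a log2 difference of 1 are set beside the share over all 18193 genes or, for the fibroblast markers, over those at level 6. Both shares are given for the chemokines, the NF-kB factors and inhibitors, and the processing genes. The chemokines, lists and limits were chosen with earlier results of these data known. Lists were written from general knowledge. Every chemokine is named. Those at level 6 or more are given on each array, and of other lists up to 4 genes at level 6 or more with the largest difference in mtYAP, with receptors, Il6 and genes below level 6 added after their values were seen. Alternatives changed the joining of probe sets, the scaling, the limit and the handling of low values. Simulated levels with 200 planted genes and a noise SD of 0.1 were counted in the same way, and all 200 were called. That noise was set and not estimated from these arrays, so the simulation checks the code and not the counts. Python 3.11.15 with numpy 2.4.6, pandas 2.3.3, statsmodels 0.14.6 and matplotlib 3.10.9 was used.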

Additional observations from a re-analysis of the deposited data

How the results depend on the processing

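The genes more than 2-fold below control were Ccl2, Ccl7, Ccl8, Cxcl12 and Cxcl5 in mtYAP and Ccl2, Ccl8 and Cxcl12 in YAP whether the brightest or any probe set of a gene was used, probe sets marked as open to cross-hybridization (_s, _x, _a) were left out or those of several genes kept, the median or a loess trend was removed from the differences, or levels under 6 were set to 6. Of these, Ccl2, Ccl7, Ccl8 and Cxcl5 are each read by 1 probe set, which is of no marked kind. The choices among probe sets could therefore not change their values, and only Cxcl12, with 3, was open to them. Between mtYAP and YAP, setting levels under 6 to 6 left Ccl2 and Ccl7, and removing the median difference added Cxcl5, at −1.03 against −1.0. With a limit of 0.65 in place of 1, Ccl25 and Ccl6 made 2 genes above control in mtYAP, where there had been 0, and Ccl6 made 1 gene higher in mtYAP than in YAP. The same limit added Ccl5 to the genes lower in mtYAP (6 in place of 5), Ccl7 to those lower in YAP (4 in place of 3) and Cxcl5 to those lower in mtYAP than in YAP (4 in place of 3). With level 5 in place of 6, 13 chemokines counted as measured, and with level 7, 5. The brightest probe set alone gave Cxcl12 a difference of −3.60 in mtYAP and −2.85 in YAP, against −2.05 and −1.74 for the mean. Of 141 single differences under the alternatives, 0 of those past 2-fold changed sign, which could hardly come out otherwise. Genes read by 1 probe set do not change with the choice among probe sets, and removing the median or trend moved values little. No paired analysis was possible because each condition has 1 array. The limits are the single control array, on which both comparisons with control rest, and levels below 6, where sizes and order are uncertain.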
